A study of Mus musculus with 4 samples.

Results

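BCL2 family, caspase and TNF superfamily genes, together with the inhibitor of apoptosis, TRAF and PIM families, were examined in mouse CD8 T cells of a naive and a memory population. The 46 genes were taken by their gene symbols from 6137 genes that the annotation of the arrays names. Of the 46, 33 had a probe set under their symbol only on the A chip, 7 only on the B chip and 6 on both chips of a 2-chip Affymetrix mouse set. Probe sets for Fas and Tnfrsf1b are also printed on the B chip but have no single symbol there, and were not counted. The symbol prefixes also took in Trafd1 and Traf3ip2, which are named for TRAF proteins but are not TRAF adaptors.

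Both populations came from B6.2.16 mice, female and deficient in RAG1, in which a T cell receptor transgene specific for the male antigen HY sets the specificity of the T cells. Naive cells were taken from lymph nodes and were over 85% pure by the labels. Memory cells began as splenocytes of the same strain that were grown with HY peptide for 4 days and given to female RAG1-deficient hosts. After 200 days they were taken back from both spleens and lymph nodes with magnetic beads, and were over 80% pure by the labels. RAG1 deficiency removes other T cells and B cells from donors and hosts but leaves macrophages and other innate cells. The sources used here do not give how many animals were pooled. Each chip carried 1 memory and 1 naive array, so there was no replicate, no spread between samples and no test. Every difference is a size between 1 pair of arrays, and organ, culture, transfer, age and sorting changed together with the group.

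Survival of a resting lymphocyte depends on a balance inside the BCL2 family. Pro-survival members such as BCL2 and MCL1 bind and hold pro-death members such as BIM, the product of Bcl2l11, and BAK, and when that hold fails mitochondria release cytochrome c and caspases cleave the cell from within. The TNF superfamily acts from outside: ligands bind receptors of the TNF receptor superfamily, TRAF and death-domain adaptors carry the signal, and the outcome is NF-kappaB activity or caspase activation. PIM kinases are short-lived serine and threonine kinases, induced by cytokines through STAT factors, that favour survival, in part by phosphorylating BAD.

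On the B chip 13 of the 46 genes had a probe set under their symbol. The values used here are intensities after both arrays were scaled to the same trimmed mean. A value under 423, a limit set from the size of the negative values, was treated as noise and replaced by 423 before a ratio was taken. A gene was called different when its brighter array reached 2 times that limit and the ratio was at least 2-fold. Of the 13 genes, 4 were above the limit on 1 array or both (30.8%), against 26.2% of the 1760 named genes on the chip. Of these 4, Pim1 was called lower in memory, none was called higher, and Pim3, Tnfrsf4 and Traf4 were within 2-fold. Among all 462 genes above the limit, 8.66% were called lower and 8.87% higher, and over all 1760 genes the shares were 2.27% and 2.33%. This split of 41 higher and 40 lower genes became 51 and 32 with median-ratio scaling, 52 and 25 with quantile and 45 and 20 with intensity-dependent (lowess) normalization. The median log2 ratio of the 4 members was -0.29, beside -0.12 for the 462 genes. A lower value in such a population cannot tell fewer cells that carry a transcript from less of it in each cell.

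**Figure D1:**
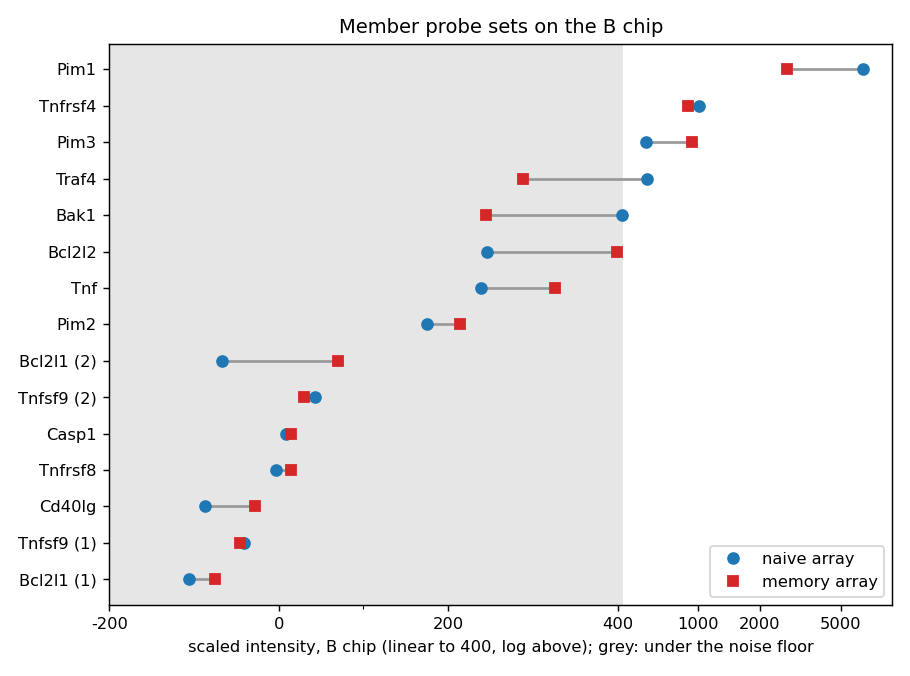
Scaled intensity of each member probe set on the B chip (linear up to 400, logarithmic above), with 1 naive and 1 memory array per probe set and no error bars because there is no replicate; a number after a gene tells its probe sets apart and grey marks values under 423. Pim1, Tnfrsf4 and Pim3 lie above the limit on both arrays, Traf4 on the naive array, and the other 9 genes on neither.

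Pim1, the founding PIM kinase, read 2725 in memory and 6448 in naive cells, a log2 ratio of -1.24 or 2.37-fold lower in memory. By its brighter array this probe set was at rank 21 of 1760 genes. The trend of ratios with intensity across the chip stood at a log2 ratio of -0.98 at the brightness of Pim1. Subtracting this trend left Pim1 at -0.26, and quantile normalization left it at -0.50, so the 2-fold call was lost under both. Under the other 6 settings of scaling, noise limit and probe set choice the ratio lay between -1.24 and -1.09 and kept its call.

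**Figure D2:**
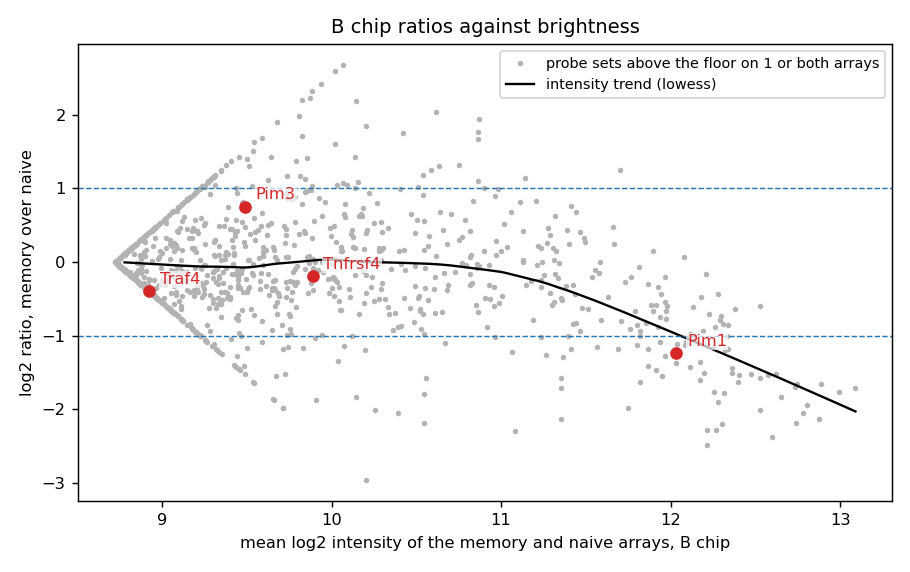
Log2 ratio of memory to naive against the mean log2 intensity of both arrays, for 1056 probe sets above the noise limit on 1 or both B arrays, with the 4 measured members in red, the intensity trend as a black line and 2-fold as dashed lines. Pim1, at -1.24, lies close to the falling trend at the bright end, whereas Pim3, at 0.75, lies where the trend is near 0.

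Pim3, a related kinase of the same family, read 932 in memory and 553 in naive cells, a log2 ratio of 0.75 or 1.69-fold. It was not called. The ratio lay between 0.77 and 0.90 under the other scalings and fell to 0.14 when the noise limit was doubled, which places the naive value under it. A different Pim3 probe set on the memory array of the A chip read 633, also above the noise of that array. Pim2 was under the noise on all 3 arrays considered, at 214 in memory and 175 in naive cells on the B chip and 35 in memory on the A chip.

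The promoters of Pim1 and Pim3 are shown because these paralogs were the PIM genes above the noise on both B arrays. Their ratios had opposite signs. The sequences are those of RefSeq on build GRCm38.p6, both on the plus strand, from 250 bases before to 50 bases after a transcription start, and 41 of the 46 genes had such an entry. The window of Pim1 is chr17:29490535-29490834, the upstream of 2 listed, and that of Pim3 is chr15:88861944-88862243. Capitals mark matches to the GC box GGGCGG on either strand.
Pim1: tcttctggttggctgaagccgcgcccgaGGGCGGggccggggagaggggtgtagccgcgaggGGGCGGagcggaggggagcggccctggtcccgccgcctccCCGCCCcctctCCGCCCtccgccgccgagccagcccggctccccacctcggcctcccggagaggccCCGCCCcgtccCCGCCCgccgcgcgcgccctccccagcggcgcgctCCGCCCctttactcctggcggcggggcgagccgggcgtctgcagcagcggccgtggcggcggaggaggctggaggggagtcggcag
Pim3: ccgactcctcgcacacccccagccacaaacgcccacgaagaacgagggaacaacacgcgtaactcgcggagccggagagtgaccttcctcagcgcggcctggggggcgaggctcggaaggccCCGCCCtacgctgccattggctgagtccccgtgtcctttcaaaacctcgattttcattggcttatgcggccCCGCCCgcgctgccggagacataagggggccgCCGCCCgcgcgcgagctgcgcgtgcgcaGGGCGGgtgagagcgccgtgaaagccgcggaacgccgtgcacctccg
Pim1 held 7 matches in a window with 81.3% G and C, and Pim3 held 4 in a window with 69.0%, where the median promoter had 52.7%. At least 1 GC box was found in 35.7% of 32851 promoters of this length, and 4 or more in 5.49%. The CCAAT box, searched as CCAAT on both strands, was matched 0 times in Pim1 and 2 times in Pim3, and in 37.4% of all promoters. The STAT motif TTCNNNGAA was matched in neither window and in 8.3% of all promoters. These are matches of letters, and no binding was measured.

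Among TNF receptors on the B chip, Tnfrsf4, which encodes the costimulatory receptor OX40, read 887 in memory and 1012 in naive cells, a log2 ratio of -0.19. The 2 values were close, and the ratio stayed between -0.21 and -0.04 in each setting that measured it. Tnfrsf8, which encodes CD30, read 13.9 and -3.02 and was not detectable. Traf4, a TRAF family adaptor, read 556 in naive cells and 289 in memory, the latter under the noise limit. Its log2 ratio of -0.40 is therefore only a bound, and with the limit halved it was -0.95, still inside 2-fold.

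**Figure D3:**
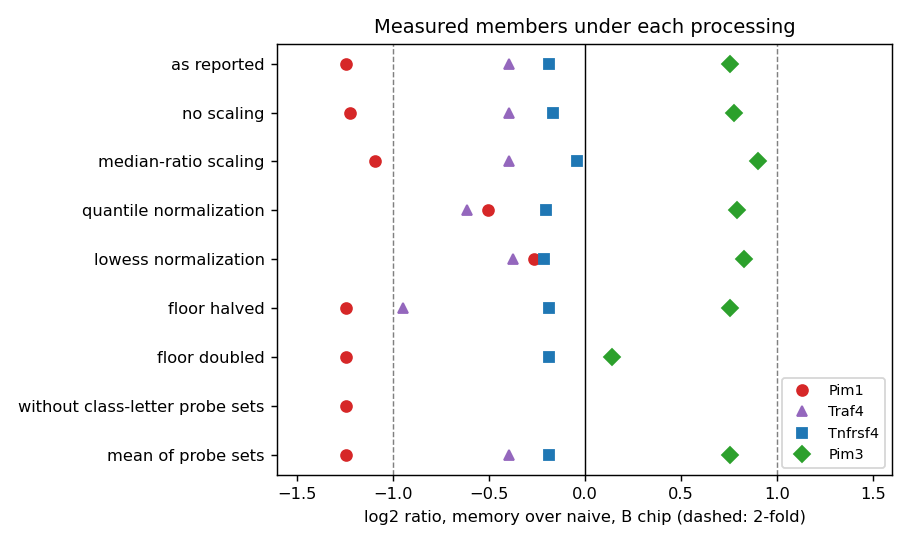
Log2 ratio of memory to naive for the 4 measured members under each way of processing the B chip, with dashed lines at 2-fold and no error bars because there is no replicate; a missing point means that the gene was under the noise limit or had no probe set left. Pim1 moves from -1.24 to -0.26 with intensity-dependent (lowess) normalization, and Pim3 stays right of 0 in all 8 settings that measured it.

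The other 9 genes on the B chip were under the noise limit on both arrays, so no ratio is given for them. Bak1, an executioner of the mitochondrial pathway, came closest, with 421 in naive cells and 245 in memory. Bcl2l2, which encodes the pro-survival protein BCL-W, read 399 in memory and 246 in naive cells. Tnf, the founding ligand of its family, read 326 in memory and 239 in naive cells. Bak1 was therefore just outside the limit and Traf4 just inside it. The inflammatory caspase gene Casp1 (13.9 and 8.06 in memory and naive cells) and the ligand gene Cd40lg (-27.8 and -86.6) gave no signal. Neither did the 2 probe sets each of Bcl2l1, for the pro-survival BCL-XL, and of Tnfsf9, for the ligand of 4-1BB, which ranged from -106 to 69.5.

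On the A chip the memory array alone is described. The naive A array hardly followed the probe sets it is listed for: it correlated with the memory A array at a Spearman rho of 0.10 across 6529 probe sets, where the B arrays gave 0.85 across 6540. For 76 probe sets printed under the same name on both chips, 55 of them controls, the memory arrays of the chips correlated at 0.96 and the naive arrays at 0.086. Of these, 17 read above 423 on both memory arrays, and the log2 ratio of B to A had a median of 0.80 and an SD of 0.16 over probe sets. These 17 ratios ranged from 0.44 to 1.03, so the offset between the memory arrays had the same direction but not a constant size. Many of the 17 read the same control transcripts, so they do not show how bright probe sets in general were read across chips.

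The noise limit of the memory A array was 184. Of 39 member genes, 16 were above it (41.0%), against 29.5% of all 4775 named genes on that chip. At 2 times the limit, 368, there were 7 (17.9%) against 15.1%, which is near the background. The median member read 151 and the median gene 79. All 16 were read by probe sets with a class letter in their name, a design mark that includes sets shared by several transcripts. Of 12 member genes with a probe set that lacks such a letter, none was above the limit on it, against 17.5% of all such genes. The levels below are single readings of different probe sets, so their order across genes is not an order of abundance.

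**Figure D4:**
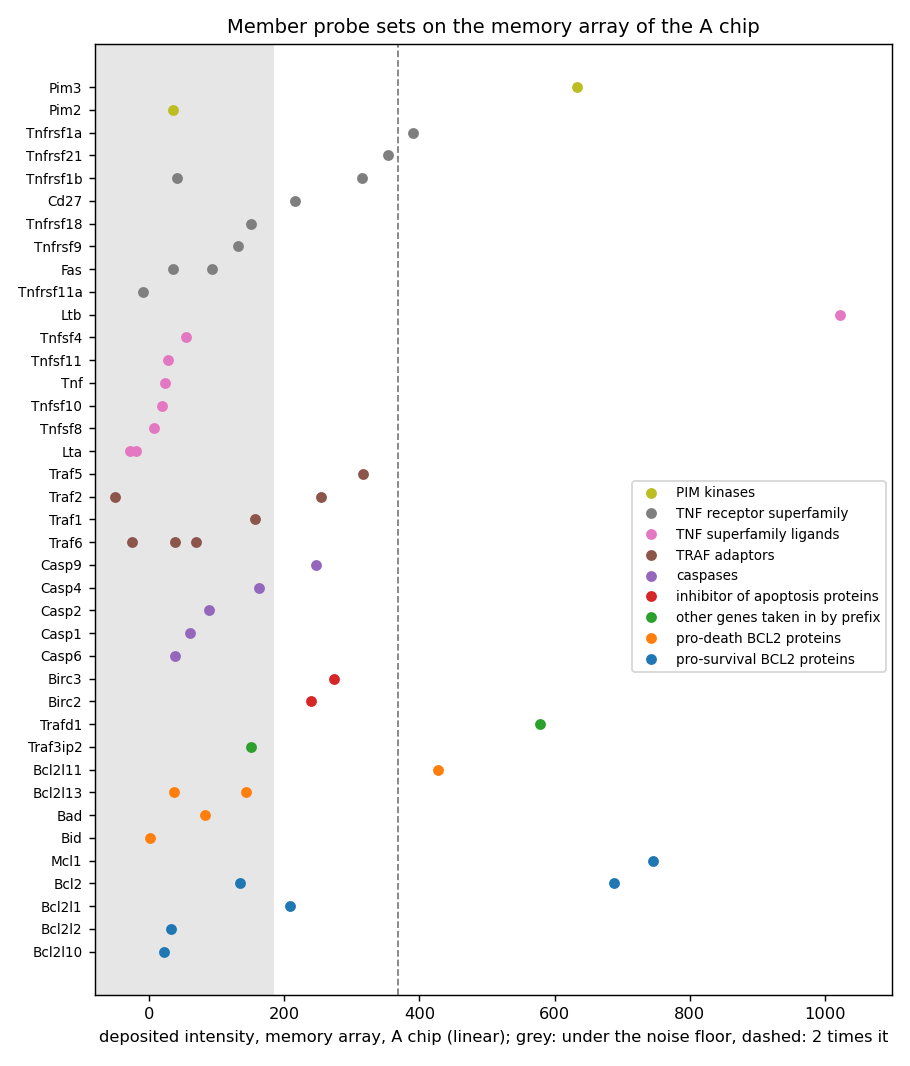
Deposited intensity of each member probe set on the memory array of the A chip (linear), 1 point per probe set, by role, without error bars because there is 1 array; grey marks values under 184 and the dashed line is at 368. Ltb, Mcl1, Bcl2, Pim3, Trafd1, Bcl2l11 and Tnfrsf1a lie to the right of the dashed line.

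The pro-survival arm of the BCL2 family was above the noise in 3 of 5 genes, beside 29.5% of all genes on the chip. Mcl1, a short-lived guardian of lymphocytes, read 746. Bcl2, the founding member, read 688 on 1 probe set but 134, under the noise, on a second set made for the same sequence entry. Bcl2l1 read 208, just above the limit, while its B chip probe sets gave no signal. Bcl2l2 at 33 and Bcl2l10 at 22 were under it. Of 4 pro-death genes on the chip 1 was above the noise, Bcl2l11 at 427, beside the same 29.5%. Bcl2l11 encodes BIM, which BCL2 and MCL1 hold in check. Bad read 83, Bid read 1 and the 2 probe sets of Bcl2l13 read 144 and 37.

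Of 5 caspase genes 1 was above the noise, where 29.5% of all genes were. It was Casp9, the initiator caspase of the mitochondrial pathway, at 247. Casp4 at 163, Casp2 at 88, Casp1 at 60 and the effector caspase gene Casp6 at 38 were not detectable. The inhibitors Birc3 and Birc2, which encode the ubiquitin ligases cIAP2 and cIAP1 that bind TRAF2, read 273 and 240, so both genes of this family on the chip were above the noise.

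Of 7 TNF superfamily ligands on the A chip, Ltb alone was above the noise, at 1023, where 29.5% of all genes on the chip were. Ltb encodes lymphotoxin beta, the membrane anchor of the lymphotoxin heterotrimer. Its partner Lta read -19 and -28 on 2 probe sets. The remaining ligand genes, Tnfsf4, Tnfsf11, Tnf, Tnfsf10 and Tnfsf8, lay between 8 and 55. For Tnf the probe set of the A chip is also printed on the B chip, where it read 42.7 in memory and 37.3 in naive cells, again under the noise. A B chip probe set that lists Tnf, Ltb and Lta together was left out for its several symbols. Its deposited values were 120 in memory and 79 in naive cells, under the noise.

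TNF receptors were above the noise in 4 of 8 genes, beside 29.5% of all genes on the chip. Tnfrsf1a, the widely expressed death-domain receptor for TNF, read 391, and Tnfrsf21, which encodes death receptor 6, read 354. Tnfrsf1b, the other TNF receptor, read 315 on 1 probe set and 42 on another. That second set, printed on the B chip too, gave 56.6 in memory and 70.5 in naive cells there, so the probe sets of Tnfrsf1b disagree. Cd27, a costimulatory receptor of naive and memory T cells, read 216. The death receptor gene Fas was under the noise on both of its probe sets, at 93 and 36, and the first of these read 161 in memory and 190 in naive cells on the B chip, also under its limit. Tnfrsf18 (GITR) at 151, Tnfrsf9 (4-1BB) at 132 and Tnfrsf11a (RANK) at -9 were under the limit as well.

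Of 4 TRAF adaptor genes, Traf5 at 317 and Traf2 at 255 were above the noise, where 29.5% of all genes on the chip were. A second Traf2 probe set, however, read -51. Traf1 at 156 and Traf6, with 3 probe sets between -25 and 70, were under the noise. Trafd1, a zinc finger protein that restrains innate signalling, read 579 on a probe set of the sequence family class, and Traf3ip2, an adaptor of the interleukin-17 receptor, read 151. In all, 23 member genes were under the limit on the A chip, from -19 to 163 with a median of 55.

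Other genes of these pathways were taken from lists of partners. Of 6 apoptosis partners on the B chip only cytochrome c, Cycs, was above the noise, at 739 in memory and 489 in naive cells, a log2 ratio of 0.60 and not called. The caspase-8 inhibitor gene Cflar, at 141 and 308, was under it. Of 26 such genes on the memory A array 11 were above the noise, which included the BCL2-binding Bnip2 at 743 and Daxx at 713, while the adaptor Fadd read -15. Of 4 measured NF-kappaB partners on the B chip, 2 were called higher and 1 lower. Tnfaip3, which encodes the inhibitor A20, was at least 3.94-fold lower in memory (404 against 1665, the memory value under the noise). Tnfaip2, a TNF-induced gene, was 3.23-fold higher (1384 against 428), although its level on the A chip in memory was -26, under the noise. The adaptor gene Myd88 was at least 2.01-fold higher (849 against 398, the naive value under the noise). These 3 calls held under each scaling and were lost when the limit was doubled. The inhibitor gene Nfkbia was not called, at 3904 against 6482 on its brighter probe set. The log2 ratio of that set, -0.73, turned to 0.68 with quantile and 0.50 with lowess normalization. A second Nfkbia probe set had a log2 ratio of -0.93, where the intensity trend stood at -0.45. Its sign did not turn when the trend was subtracted, so the 2 probe sets disagree there. On the memory A array 4 of 15 NF-kappaB partners were above the noise, with the subunit genes Rela at 948 and Relb at 304. Of all genes on that array 29.5% were above it.

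Markers of the labelled cells and of other cells were read beside the members. On the B chip 5 of 7 T cell markers were measured, of which 1 was called lower in memory and none higher, and their summed intensity was 4780 in memory and 8577 in naive cells. The lower one was Thy1, which made up most of both sums, at 2848 in memory and 6184 in naive cells. Its log2 ratio of -1.12 fell inside 2-fold with median-ratio (-0.97), quantile (-0.34) and lowess (-0.14) scaling, so the difference of the sums depends on the scaling too. Cd3d read 959 in memory and 1115 in naive cells. Cd3g (254 against 502) and Zap70 (221 against 424) were under the noise in memory, and Cd8a (498 against 352) in naive cells. On the memory A array 3 of 5 T cell markers were above the noise, the highest being Cd3e at 317, beside 29.5% of all genes. Of 11 measured macrophage and monocyte markers on the B chip 6 were called higher in memory and none lower, and their summed intensity was 28398 in memory and 16409 in naive cells. Of the 11, Apoe alone was under the noise limit in naive cells, at 260, and none was in memory. The genes called higher were, from the largest ratio down, Mpeg1 (3665 in memory against 954 in naive cells), Mrc1, Csf1r, Lgmn, Apoe and C1qb. On the memory A array 10 of 12 such markers were above the noise, up to 2409. Mpeg1, at 96, and Fcgr1, at 113, were under it there, so the chips disagree on Mpeg1 in memory. Of the called genes, Apoe at 479 and C1qb at 1921 were above the noise on that array. Granulocyte markers were above the noise in 3 of 4 genes on the memory A array, up to 2483, and B cell markers in 2 of 4, up to 301. On the B chip 0 of 3 measured granulocyte markers and 0 of 1 B cell marker were called. Of 6 measured dendritic cell and MHC class II markers 2 were called higher and 1 lower, of 4 erythroid markers 1 higher and 2 lower, and of 3 NK cell markers 1 lower. The lower calls on Cd74 (log2 ratio -1.63, intensity trend -1.33), Hbb-b2 (-1.41, -0.82) and Gzma (-1.02, -0.12) fell inside 2-fold once the trend was subtracted. Hba-a1 (-2.49, -1.16) did not. For the higher calls, H2-Ab1, H2-DMb1 and Alas2, the trend lay between -0.032 and 0.029. Macrophages and granulocytes also express Mcl1, Tnfrsf1a, Tnfrsf1b and Pim kinases, and the part of these cells in the levels of any member was not tested.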

How the data were processed

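Trizol-extracted RNA was converted to cRNA and hybridised by the protocols of the array maker, per the labels. The deposited values are array intensities, 1 whole number per probe set, some of them negative. How background was subtracted, with which software and which build, the sources used here do not state. The deposited intensities had a 2% trimmed mean of 150.2 to 150.4 on each of the 4 arrays.

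The 55 control probe sets of each chip were left out of scaling, noise limits, ratios and calls, and used only to compare arrays between chips. The B arrays were multiplied by 0.993 and 1.01 to reach a common trimmed mean, and the memory A values were used as deposited. The noise limit was set at the 95th percentile of the negative values by size, from the noisier array on B and the memory array on A. Of several probe sets with a single symbol, the brightest stood for the gene. Symbols came from the platform annotation, checked by Entrez number against RefSeq, and 0 changed. Prefixes were read as any symbol that begins with them, with a digit required only after Pim.

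The symbol rule for the members, the partner lists, the marker lists and alternatives were chosen with earlier results of these data known. The rule for naming covered each B member, each A member above the noise and each member with probe sets on both chips. Other A members under the noise are named outside that rule, to complete a family. Listed genes that were not called were named as examples chosen after their values were seen. The number of arrays limits the precision, and no test was possible. Python 3.11.15 with pandas 2.3.3 and statsmodels 0.14.6 was used, and the calling procedure was tested on simulated data. Those data held planted changes larger than 2-fold in bright probe sets only, and no intensity trend. The simulation therefore does not bear on calls near the thresholds or on the trend.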

Additional observations from a re-analysis of the deposited data

Results flagged for a closer look

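A probe set on the A chip that lists 5 symbols, Mthfs and the 4 BCL2A1 copies Bcl2a1a, Bcl2a1b, Bcl2a1c and Bcl2a1d, read 331 on the memory array, 1.8 times the noise limit. It was outside the comparisons because only probe sets with a single symbol were used, and the reading cannot be assigned to one of these genes. BCL2A1, also called A1, is a pro-survival member of the BCL2 family.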

How the results depend on the processing

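Of 13 genes named on the B chip, 1 was called. That count was 0 with quantile normalization, lowess normalization and a 3-fold threshold, 2 with a 1.5-fold threshold (Pim1 lower and Pim3 higher), and 1 under the other 8 alternatives. The median log2 ratio of the measured members, -0.29, moved by more than 0.16 with median-ratio scaling (-0.040), with the limit halved (-0.084), without class-letter probe sets (-1.24, Pim1 alone) and with no filter (0.0). The value with no filter was fixed in advance, since 9 of the 13 genes were set to the limit on both arrays. The yardstick of 0.16 is the SD over 17 bright probe sets printed on both chips, between the memory arrays. It is not the error of a ratio of memory to naive. No ratio of a measured member changed sign. The count of 16 members above the noise on the memory A array became 7 with the limit doubled, 8 with its 99th percentile, 10 with the limit of the noisier A array and 0 without class-letter probe sets, which left 12 genes. It was 23 with the limit halved and 14 with the mean of probe sets. Leaving out an array was not possible, since each chip has 1 per group. No paired analysis was possible because the labels number no replicates and no result comes from a test. Differences under the noise limit were not detectable.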
